A study of Mus musculus with 6 samples.

Results

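Imprinted genes were examined in pancreatic islets of mice given bisphenol A (BPA) or its vehicle. The set held 10 genes: Dlk1, Igf2, H19, Nnat, Plagl1, Cdkn1c, Peg3, Peg10, Mest and Grb10. Every probe set annotated with the symbol of 1 of them was taken. That gave 19 probe sets for 9 genes of the 45101 on the array, plus 1 probe set annotated with both H19 and Mir675, so 20 in all. Islet RNA came from OF1 male mice, 10 weeks old, with 3 control samples and 3 BPA samples, each on its own Affymetrix array. The strain is shared by both groups, and no genotype or allele is named. The labels disagree on the treatment. By the series design, mice got 100 µg/kg of BPA a day under the skin as 2 injections of 50 µg/kg for 4 days, with islets taken 16 hours after the last one and corn oil for controls. The samples' treatment text gives 2 days at that daily dose, and the BPA source names give 1 nM for 48 hours. Which account applied cannot be told from them. Samples of a group are labelled as biological replicates without the number of mice behind each. The p-values therefore set each group difference against the variation between these samples, estimated in part from other probe sets.

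An imprinted gene is transcribed mainly from the copy inherited from 1 parent, for many of them as set by DNA methylation laid down in egg or sperm. Igf2, Dlk1, Nnat, Plagl1, Peg3, Peg10 and Mest are known as genes of the paternal copy, and H19 and Cdkn1c as genes of the maternal copy, while the expressed copy of Grb10 depends on the tissue. Many of them control fetal growth, and several act in beta cells or their precursors: PLAGL1 overexpression is a cause of transient neonatal diabetes in people, and loss of CDKN1C expression marks focal congenital hyperinsulinism. An array signal sums both parental copies, so nothing here bears on imprinting itself. In whole islets, fewer cells of a type and less RNA per cell cannot be told apart either.

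No difference between BPA and control passed the test for any of these genes with 3 arrays a group. Signals are log2 values, so a difference of 1 is a 2-fold change. Of the 20 probe sets, 10 from 7 genes lay above the signal filter, the median of all probe set means (6.60), and were tested. By limma's moderated test, 0 of those 10 passed at an adjusted p under 0.05, where 0.00% of all 22518 tested probe sets did. At an unadjusted p under 0.05 there was 1 of 10, a Peg3 probe set, against 6.47% of all tested. The 10 differences ran from -0.36 (Cdkn1c) to 0.37 (Nnat) with a median of 0.041, and 6 were above 0. Over all tested probe sets the median was 0.011 and 52.6% were above 0. The groups overlapped in each of the 10 tested member probe sets, while 12.2% of all tested probe sets had groups without overlap (BPA higher in 7.83%, lower in 4.35%).

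**Figure D1:**
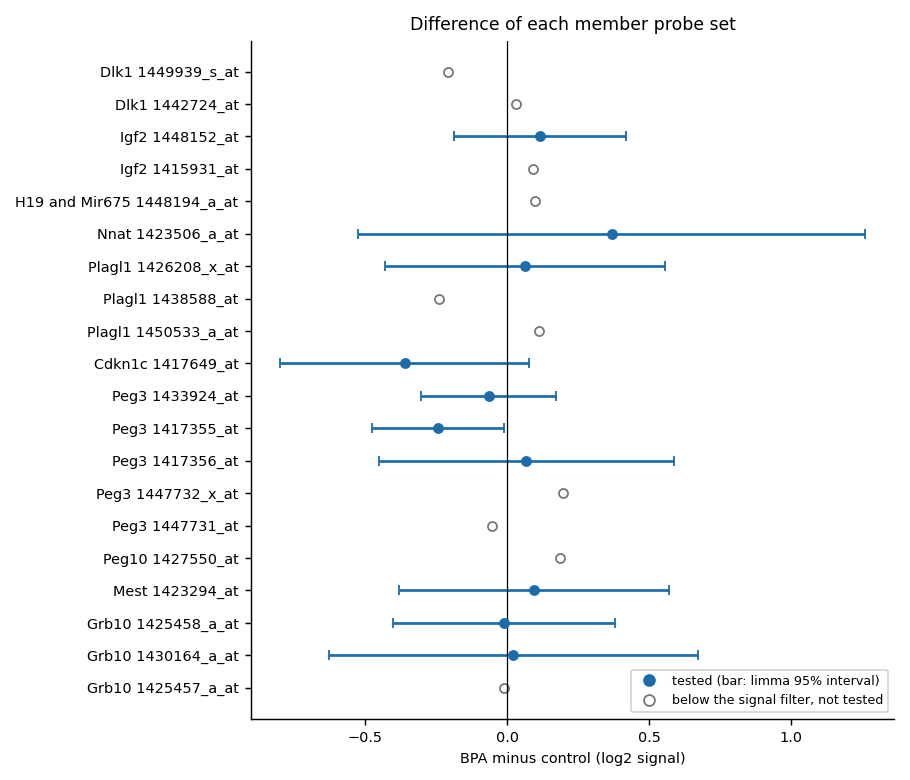
Difference in log2 signal, BPA minus control, for the 20 probe sets annotated with the member genes. Filled points with bars are the 10 tested probe sets with limma's 95% interval (n = 3 arrays per group), open points are the 10 below the signal filter. The bar of Peg3 1417355_at lies below 0 (-0.48 to -0.01) and the other 9 bars cross 0.

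The endocrine markers bore out the islet label. The 10 endocrine marker genes with a probe set of their own all passed the filter, from Ins2 at 15.24 to 15.32 down to Pdx1 at 11.03 to 11.32 over the 6 arrays. Their mean level lay between 13.86 and 13.91 in controls and between 13.81 and 13.97 after BPA. That is an average over genes that differed between groups by -0.21 to 0.42 and over probe sets near the top of the scale. The groups did not overlap for 3 of the 10 (1 higher and 2 lower), against 12.0% of all genes. By limma 1 had an unadjusted p under 0.05, against 5.34% of all genes, and 0 passed. Acinar markers, which come from exocrine tissue, were also bright: 9 of 13 list genes were measured, with mean levels of 11.86 to 13.92 in controls and 12.76 to 14.22 after BPA, and none of them was near the floor of the array (2.95 to 3.04). The acinar mean was lowest in the replicate 3 arrays of both groups. Control replicate 3 and BPA replicate 3 stood apart from the other 4 arrays in general. Both lay outside the range of those 4 in 35.9% of all tested probe sets. They correlated with each other at 0.993 and with the other arrays of their own groups at 0.982 to 0.986. The difference of each member probe set, and those of the list genes discussed at length, are therefore given without these arrays as well.

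Growth factors come first. Igf2 encodes insulin-like growth factor 2, a ligand of the IGF and insulin receptors, and lies between H19 and Ins2 in the RefSeq gene order. Its tested probe set (1448152_at) read 8.46, 8.21 and 8.13 in control replicates 1 to 3 and 8.40, 8.33 and 8.40 after BPA. The BPA values fell inside the control range. The difference was 0.11 ± 0.13 (SE), with a 95% interval from -0.19 to 0.42 (adjusted p = 0.896), and 0.03 without the replicate 3 arrays. A further probe set (1415931_at) lay below the filter at 4.56 to 4.74 in controls and 4.67 to 4.89 after BPA. That pair of ranges overlapped too, the difference without the replicate 3 arrays was 0.07, and no test was made.

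Dlk1 encodes a transmembrane relative of the Notch ligands that restrains differentiation of several precursor cells. Both of its probe sets lay below the filter. The brighter one (1449939_s_at) missed it by 0.18 and read 6.37, 6.50 and 6.73 in controls and 6.16, 6.05 and 6.75 after BPA. The highest value in each group was its replicate 3. BPA replicates 1 and 2 lay below all controls, so the mean difference of -0.21 became -0.33 without the replicate 3 arrays. The other probe set (1442724_at) ran from 4.45 to 4.77 over the 6 arrays, and BPA replicate 3 held the highest value. Its difference of 0.03 became -0.06 without the replicate 3 arrays.

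H19 encodes a long noncoding RNA whose transcript also holds the hairpin of a microRNA, Mir675. The array reads it through a probe set that carries both names (1448194_a_at), so its signal cannot be given to H19 alone, and the protocol's 3′ labelling of long RNA does not measure the mature microRNAs. They are printed here because the shared name rests on them. The mature sequences are from RefSeq (GRCm38.p6, minus strand), with the seed, bases 2 to 8, in capitals. The 3p arm lies at chr7:142577078-142577099 and the 5p arm at chr7:142577112-142577133, and their seeds differ.
mmu-miR-675-5p: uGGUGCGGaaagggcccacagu
mmu-miR-675-3p: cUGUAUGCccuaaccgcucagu

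The probe set of H19 and Mir675 was dim. It read 4.93, 4.74 and 5.06 in controls and 5.24, 4.90 and 4.89 after BPA, so the groups overlapped. BPA replicate 1 was the highest array. The mean difference was 0.10 over all arrays and 0.23 without the replicate 3 arrays, in both cases without a test because the probe set lay below the filter.

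Grb10 encodes an adaptor that binds the insulin and IGF1 receptors and restrains their signalling. Its brightest probe set (1425458_a_at) read 10.90, 11.08 and 10.53 in controls and 10.91, 10.91 and 10.66 after BPA. Replicate 3 was the lowest array in each group, and the other 4 lay within 10.90 to 11.08. The difference between groups was -0.01 ± 0.17 (SE), with a 95% interval from -0.40 to 0.38 (adjusted p = 0.995), and -0.08 without the replicate 3 arrays. Its second tested probe set (1430164_a_at), just 0.13 above the filter, went the other way in the same arrays. Controls read 6.55, 6.56 and 7.06, and BPA arrays 6.65, 6.30 and 7.28, so replicate 3 was now the highest array in each group. The difference between groups was 0.02 ± 0.27 (SE, adjusted p = 0.995), and -0.08 without the replicate 3 arrays. Both probe sets have the suffix _a_at, which Affymetrix gives to sets that read alternative transcripts of a gene, and their positions in the transcripts were not used here. The remaining one (1425457_a_at) lay below the filter at 5.12 to 5.48 over all arrays, with a difference of -0.01, or 0.01 without the replicate 3 arrays.

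Cdkn1c encodes p57, an inhibitor of cyclin-dependent kinases that holds cells out of the cycle. Its probe set (1417649_at) read 8.36, 8.07 and 8.05 in controls and 8.14, 7.55 and 7.71 after BPA. BPA replicates 2 and 3 lay below every control, and BPA replicate 1 lay above 2 of them. The difference of -0.36 ± 0.18 (SE) put controls at 1.28 times the BPA signal, with a 95% interval for BPA over control from 0.575 to 1.05 fold (adjusted p = 0.798). Of all tested probe sets, 12.8% differed by at least as much. It was -0.37 without the replicate 3 arrays, and between -0.53 and -0.24 with each array left out in turn, so BPA remained the lower group in each of these fits.

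Among 12 measured relatives and targets of Cdkn1c (14 in the list), cyclins, other kinase inhibitors, kinases and Rb1, 0 passed limma's test and 0 had an unadjusted p under 0.05 on the probe set used, against 5.34% of all genes. Of these 5 were higher and 7 lower after BPA, with a median of -0.040. None had groups without overlap, against 12.0% of all genes. Over all 26 tested probe sets of these genes, 3 had groups without overlap and 3 had an unadjusted p under 0.05. The shares of all tested probe sets were 12.2% and 6.47%. Ccnd2, a D-type cyclin that serves beta cell division, read 14.09 ± 0.12 in controls and 13.85 ± 0.16 after BPA (SD, n = 3 per group), a difference of -0.24 ± 0.11 (SE, adjusted p = 0.791). Cdk4 and Rb1 differed by -0.03 and -0.15.

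**Figure D2:**
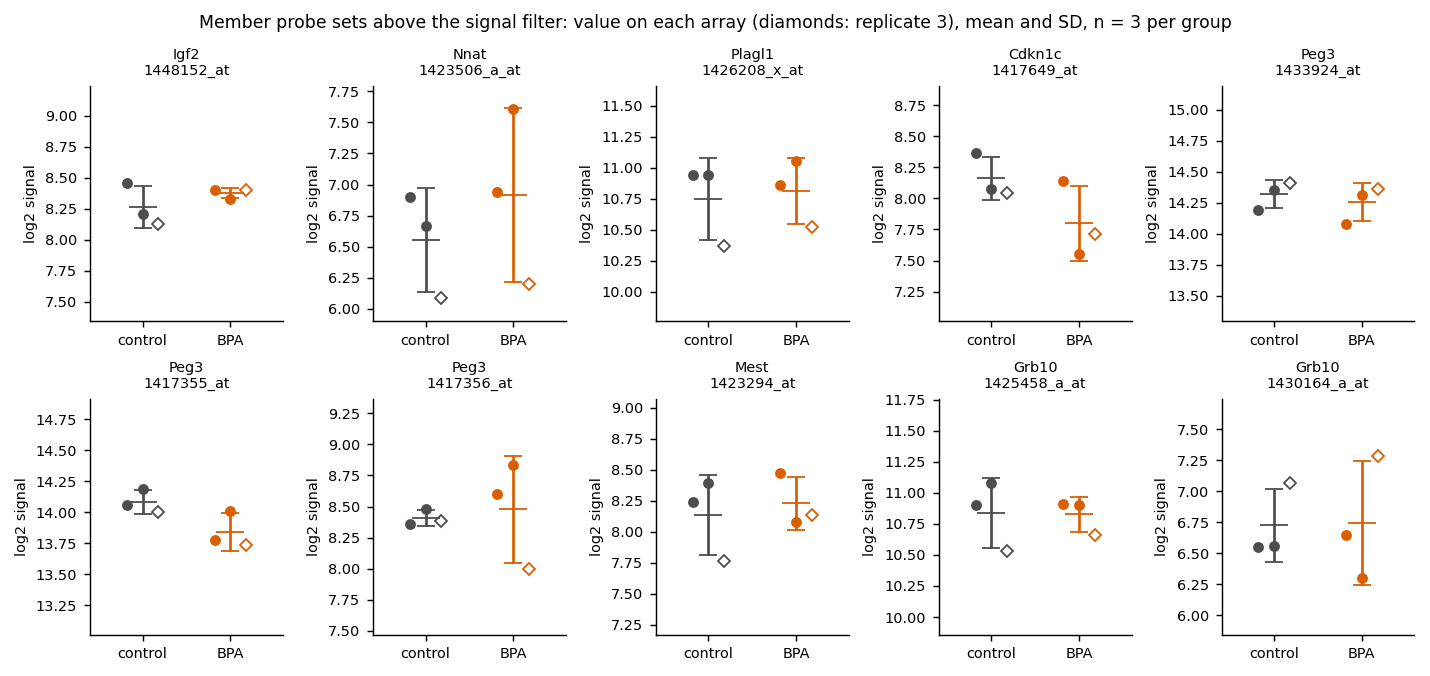
Log2 signal of the 10 tested member probe sets on each of the 6 arrays, with a vertical span of the same size in every panel. Circles are replicates 1 and 2, open diamonds replicate 3, and bars the group mean ± SD (n = 3). Both replicate 3 arrays lie below the other 4 for Nnat, Plagl1 and Grb10 1425458_a_at, and above them for Grb10 1430164_a_at and Peg3 1433924_at.

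Peg3 encodes a large zinc finger protein and is read by 5 probe sets, 3 of them tested. Of those, 2 lay near the top of the signal range (15.24 to 15.32 per array). The first (1433924_at) read 14.19, 14.36 and 14.41 in controls and 14.08, 14.31 and 14.36 after BPA. These overlapped, with a difference of -0.07 ± 0.10 (SE) and a 95% interval from 0.809 to 1.13 fold (adjusted p = 0.925), or -0.08 without the replicate 3 arrays. The second (1417355_at) gave 14.06, 14.19 and 14.01 in controls against 13.78, 14.01 and 13.74 after BPA. Here BPA replicates 1 and 3 lay below all controls, and BPA replicate 2 was level with control replicate 3. Replicate 3 was the lowest array of each group. The difference of -0.24 ± 0.10 (SE) was a 95% interval from 0.718 to 0.992 fold, with an unadjusted p of 0.042 and an adjusted p of 0.748, and it was -0.23 without the replicate 3 arrays. It was the lone member probe set at an unadjusted p under 0.05. The other tested one (1417356_at) read 8.36, 8.48 and 8.39 in controls and 8.60, 8.84 and 7.99 after BPA. BPA arrays lay on both sides of the controls, and the difference was 0.07 ± 0.22 (SE, adjusted p = 0.969), or 0.30 without the replicate 3 arrays. The 3 probe sets of Peg3 thus disagreed in direction. Below the filter, 1447732_x_at read 3.49 to 3.67 in controls and 3.72 to 3.81 after BPA, without overlap, a difference of 0.19, or 0.22 without the replicate 3 arrays. The suffix _x_at marks probes that may also match other sequences. The remaining one (1447731_at) ran from 3.37 to 3.87 with overlap, and differed by -0.15 without the replicate 3 arrays. Both are close to the lowest values of the arrays.

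Plagl1 encodes a zinc finger transcription factor that is known to act on other imprinted genes, among them Igf2, H19 and Cdkn1c. Its tested probe set (1426208_x_at) read 10.94, 10.94 and 10.37 in controls and 10.86, 11.05 and 10.52 after BPA. Both replicate 3 arrays lay below the other 4, by 0.50 on average (means of 10.45 and 10.95). The groups differed by 0.06 ± 0.21 (SE), with a 95% interval from 0.741 to 1.47 fold (adjusted p = 0.969), and by 0.01 without the replicate 3 arrays. Below the filter, 1438588_at read 6.34 to 6.55 in controls and 6.13 to 6.31 after BPA. All BPA arrays lay below all controls there, a difference of -0.24, or -0.31 without the replicate 3 arrays. The last of them (1450533_a_at) read 4.03 to 4.10 in controls and reached 4.44 in BPA replicate 2, with overlap, and differed by 0.18 without the replicate 3 arrays. Those without overlap among the 10 member probe sets below the filter were 2, this one of Plagl1 and the one of Peg3 named above, in opposite directions. Over all probe sets below the filter the share was 10.9% (7.29% higher and 3.57% lower), and these members were not tested.

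Nnat encodes neuronatin, a small membrane protein of the endoplasmic reticulum that is known to take part in insulin processing in beta cells. Its probe set (1423506_a_at), 0.13 above the filter, read 6.90, 6.66 and 6.09 in controls and 6.94, 7.61 and 6.20 after BPA. The range over the 6 arrays was 1.52, more than for any other member probe set, with BPA replicate 2 at the top and both replicate 3 arrays at the bottom. The groups overlapped. The difference of 0.37 ± 0.37 (SE) had a 95% interval from 0.695 to 2.39 fold (adjusted p = 0.891). It ran from 0.02 without BPA replicate 2 to 0.73 without BPA replicate 3, so single arrays decide its size. Without both replicate 3 arrays it was 0.49.

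Mest encodes a protein of the alpha/beta hydrolase family and is a marker of growing fat and fetal tissue. Its probe set (1423294_at) read 8.24, 8.39 and 7.77 in controls and 8.47, 8.08 and 8.14 after BPA. Control replicate 3 was the lowest array and the groups overlapped. The difference was 0.09 ± 0.20 (SE, adjusted p = 0.948), and -0.04 without the replicate 3 arrays. Peg10, derived from a retrotransposon and needed in the placenta, had a dim probe set (1427550_at) at 4.24, 4.12 and 4.27 in controls and 4.59, 4.41 and 4.19 after BPA. BPA replicates 1 and 2 lay above all controls and BPA replicate 3 among them. The difference of 0.18 became 0.32 without the replicate 3 arrays. The probe set lay below the filter and was not tested.

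In most tested member probe sets the replicate 3 arrays differed from the others by more than BPA arrays did from controls. In 5 of 10 tested probe sets both replicate 3 arrays lay outside the range of the other 4, 2 above and 3 below, where 35.9% of all tested probe sets did (14.6% above, 21.3% below). The difference of replicate 3 from the other 4 exceeded the BPA difference in size in 7 of 10, against 63.9% of all tested probe sets. The members' counts were near these shares, so the pattern was not particular to them. It was largest for Nnat (-0.89) and Grb10 1430164_a_at (0.66), followed by Plagl1 (-0.50), and Dlk1 1449939_s_at below the filter stood 0.47 higher. The acinar mean, taken relative to its mean over 6 arrays, lay at -1.42 for control replicate 3, at -0.52 for BPA replicate 3 and from 0.05 to 0.94 for the remaining 4. All 9 acinar genes had both replicate 3 arrays outside the range of the others, as did 7 of 13 stellate and fibroblast genes and 0 of 10 endocrine genes. With the acinar mean as a covariate, the BPA differences were 0.25 for Nnat, -0.02 for Plagl1, -0.08 for Grb10 1425458_a_at and 0.11 for Grb10 1430164_a_at, and none passed. The part of exocrine tissue in the replicate 3 pattern itself was not tested.

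**Figure D3:**
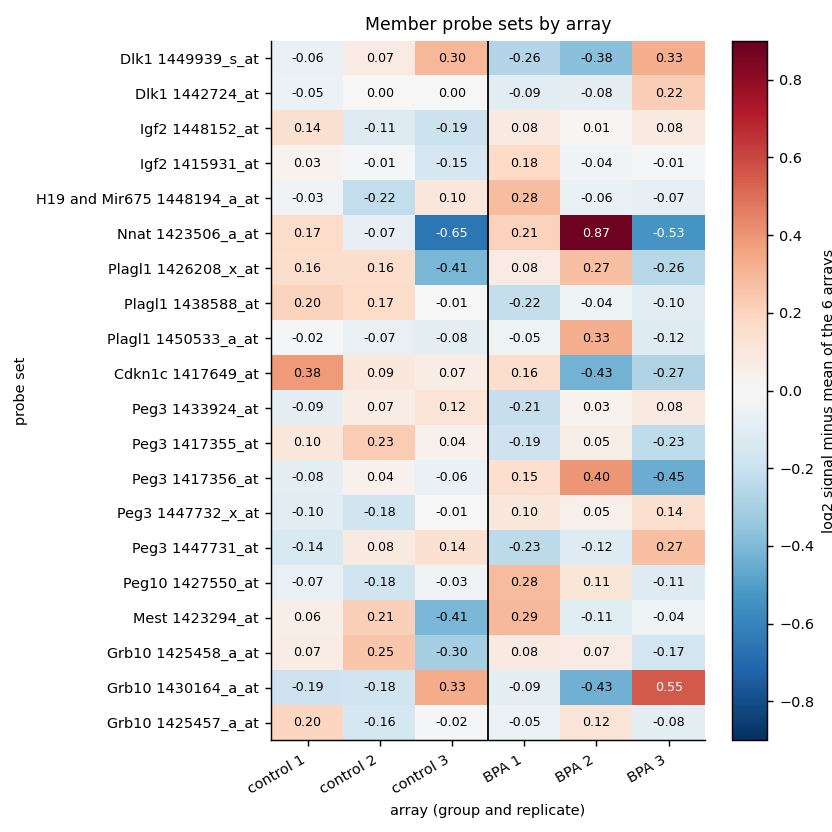
Log2 signal of each of the 20 member probe sets on each array minus its mean over the 6 arrays, red above and blue below that mean, with controls left of the line. Nnat shows the largest deviations (BPA replicate 2 at 0.87, control replicate 3 at -0.65). The replicate 3 columns are alike in sign for Dlk1 1449939_s_at, Nnat, Plagl1 1426208_x_at and both tested Grb10 probe sets, among others. Over all tested probe sets, both replicate 3 arrays lay outside the range of the other 4 in 35.9%.

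Nnat, Plagl1 and Grb10 1425458_a_at had both replicate 3 arrays below the other 4, while Grb10 1430164_a_at had both above, by 0.66 on average. Promoter windows of these genes are shown. That of Peg3 is added as the member window that held the other motif searched, and it is no contrast, since 2 of the 3 tested Peg3 probe sets also averaged lower in the replicate 3 arrays (-0.14 and -0.38). RefSeq windows of 300 bases (250 before to 50 after a transcript start, GRCm38.p6) were at hand for 7 of the member genes, 13 windows in all. They were searched on both strands for TGCCGC, the letters that the imprint-keeping factor ZFP57 is known to bind when methylated, and for GGGGCCCC, a site known for PLAGL1, which reads the same on both strands. Matches are in capitals, they did not overlap each other, and each line runs 5′ to 3′ on the gene's own strand. The windows are Nnat at chr2:157559828-157560127 (plus strand), Plagl1 at chr10:13090582-13090881 (plus strand), the upstream of 2 windows of Grb10 at chr11:12037371-12037670 (minus strand) and Peg3 at chr7:6730370-6730669 (minus strand).
Nnat: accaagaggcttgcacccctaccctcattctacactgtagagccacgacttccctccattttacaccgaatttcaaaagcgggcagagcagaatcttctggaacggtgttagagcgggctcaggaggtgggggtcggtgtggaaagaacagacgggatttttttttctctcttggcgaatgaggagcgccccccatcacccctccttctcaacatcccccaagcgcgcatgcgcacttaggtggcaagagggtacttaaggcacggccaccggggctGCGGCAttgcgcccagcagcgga
Plagl1: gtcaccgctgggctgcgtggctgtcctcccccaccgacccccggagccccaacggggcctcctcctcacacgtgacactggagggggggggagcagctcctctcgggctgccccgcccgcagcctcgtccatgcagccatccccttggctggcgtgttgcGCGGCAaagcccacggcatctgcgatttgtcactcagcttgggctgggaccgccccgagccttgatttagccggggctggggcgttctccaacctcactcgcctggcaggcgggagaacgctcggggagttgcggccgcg
Grb10: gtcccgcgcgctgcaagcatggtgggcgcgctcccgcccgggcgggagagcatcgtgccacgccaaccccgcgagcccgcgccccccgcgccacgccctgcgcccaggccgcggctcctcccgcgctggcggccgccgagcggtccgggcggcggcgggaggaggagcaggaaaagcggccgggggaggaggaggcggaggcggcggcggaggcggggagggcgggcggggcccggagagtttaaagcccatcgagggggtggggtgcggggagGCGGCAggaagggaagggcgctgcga
Peg3: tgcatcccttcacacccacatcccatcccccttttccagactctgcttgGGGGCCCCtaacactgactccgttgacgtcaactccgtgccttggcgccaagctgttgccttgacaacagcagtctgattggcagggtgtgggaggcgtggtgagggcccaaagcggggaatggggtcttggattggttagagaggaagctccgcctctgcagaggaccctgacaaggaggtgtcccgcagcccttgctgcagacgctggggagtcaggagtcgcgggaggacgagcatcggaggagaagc

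Each of the first 3 windows held 1 match to TGCCGC, on the opposite strand (printed as GCGGCA), and the Peg3 window held 1 match to GGGGCCCC and none to TGCCGC. The downstream Grb10 window, which is not shown, held 9 CG pairs and neither motif. Which transcript start the Grb10 probe sets read was not determined. Over the members, TGCCGC was in 6 of 13 windows, in windows of Igf2, Nnat, Plagl1, Mest and Grb10. Of the 6, 2 are Mest windows that overlap and hold the same matches. The share was 11.6% over all 32851 windows in the table. The 13 member windows held from 2 (Igf2) to 45 CG pairs (the Grb10 window shown), with 17 in Nnat, 26 in Plagl1 and 13 in Peg3, where the median of all windows was 7. Of the 10320 windows with at least 17 CG pairs, 26.2% held TGCCGC. That bound is the lowest count among the Nnat, Plagl1 and Grb10 windows shown. The 6 of 13 is not limited in this way, since the matching Igf2 window held 14, so these shares cover unlike sets. GGGGCCCC was in 1 of 13 member windows and in 1.08% of all. A match describes the letters of the window, and no binding or methylation was measured here.

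No other gene listed as imprinted passed the test either, and whether each is imprinted in islets was not examined. Of 47 listed, 38 had a probe set of their own and 29 were measured, each by its brightest tested probe set. By limma 0 of 29 passed, and 2 had an unadjusted p under 0.05, against 5.34% of genes. After BPA 12 were higher and 17 lower, with a median of -0.017, while 57.7% of all 11787 measured genes were higher, with a median of 0.028. The groups did not overlap for 5 of 29, against 12.0% of genes. On all 62 tested probe sets of the list, 6 had groups without overlap and 3 an unadjusted p under 0.05. The shares of all tested probe sets were 12.2% and 6.47%. Igf2r, which encodes the receptor that clears IGF2, had the smallest p. It read 10.08, 10.06 and 9.09 in controls and 8.79, 8.77 and 8.61 after BPA (1424112_at), a difference of -1.02 ± 0.27 (SE, adjusted p = 0.655). All BPA arrays were below all controls, and the difference was -1.29 without the replicate 3 arrays. Its other probe set of that symbol (1424111_at) differed by 0.18 with overlap, so the probe sets of Igf2r disagreed. Rian, a noncoding RNA of the Dlk1 region, read 10.05 ± 0.27 in controls and 9.33 ± 0.40 after BPA (SD, n = 3 per group), a difference of -0.72 ± 0.23 (SE, adjusted p = 0.699), or -1.01 without the replicate 3 arrays. Other tested probe sets of Rian ran from -0.73 to -0.07 and overlapped between groups. The ubiquitin ligase gene Ube3a differed by -0.26 (its other tested probe sets by -0.09 and -0.0018), Tssc4 by 0.27 and the translation factor gene Mcts2 by 0.26, none past the test. Of the 3 brightest of the list, Ddc, the decarboxylase that makes dopamine and serotonin, differed by -0.01 with overlap. The G protein gene Gnas differed by -0.16 and Ndn, which encodes necdin, by 0.18, both without overlap and neither past the test. The other tested probe sets of Ndn lay between 0.0090 and 0.12 with overlap. Without the replicate 3 arrays the list had 13 higher and 16 lower, with a median of -0.0095.

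Some noncoding RNAs of imprinted loci had both replicate 3 arrays above the other 4, and are named here after their values were seen. Meg3, the maternal partner of Dlk1, read 12.32, 12.87 and 13.74 in controls and 11.93, 11.67 and 13.44 after BPA on its brightest probe set (1439380_x_at). Replicate 3 was the highest array of both groups, as it was for Dlk1 1449939_s_at. The groups overlapped, with a difference of -0.63, or -0.79 without the replicate 3 arrays. Kcnq1ot1 of the Cdkn1c region and Airn of the Igf2r region also had both replicate 3 arrays above the other 4 on their brightest tested probe sets, while a dimmer one of Airn (1436627_at) had both below. The brightest probe set of Rian and that of H19 and Mir675 did not show this. Among dimmer tested probe sets of Rian, 1440001_at and 1427580_a_at had both above (by 1.13 and 0.49 on average) and 1452899_at did not. Both tested probe sets of Mirg, another noncoding RNA of the list, had both above (by 1.13 and 0.63). Over the list, replicate 3 stood outside in 12 of 29 genes, against 34.6% of all genes.

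In the axis of IGF and insulin receptors around Igf2 and Grb10, 18 of 22 listed genes were measured and 0 passed limma's test. The unadjusted p was under 0.05 for 3, against 5.34% of genes, and 11 were higher and 7 lower, with a median of 0.062. Igf2r, described above, is among the 3, so the same probe set counts in both lists. The groups did not overlap for 4 of 18 (2 higher and 2 lower, Igf2r among the lower), against 12.0% of genes. On all 38 tested probe sets of the list, 5 had groups without overlap and 3 an unadjusted p under 0.05. The shares of all tested probe sets were 12.2% and 6.47%. Irs2, the insulin receptor substrate that serves beta cell growth, read 9.66, 9.58 and 9.93 in controls and 8.73, 9.30 and 9.08 after BPA. All BPA arrays lay below all controls, with a difference of -0.68 ± 0.18 (SE, adjusted p = 0.655), or -0.60 without the replicate 3 arrays. Igfbp5, an IGF binding protein, read 8.91 ± 0.10 in controls and 9.42 ± 0.29 after BPA (SD, n = 3 per group), also without overlap, at 0.51 ± 0.17 (SE, adjusted p = 0.701), or 0.39 without the replicate 3 arrays. On a second tested probe set Igfbp5 gave -0.0098. The kinase gene Akt1 differed by 0.24 without overlap, and the binding protein genes Igfbp4 and Igfbp7 by 0.44 and 0.01 with overlap. The adaptor gene Grb14, a relative of Grb10, differed by -0.15.

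Factors that set, keep or read methylation at imprinted loci were measured for 12 of 17 listed, and 0 passed. Of these 5 were higher and 7 lower, with a median of -0.034, and 1 had an unadjusted p under 0.05, against 5.34% of all genes. That was Zfp445, which encodes a zinc finger protein that keeps imprints together with ZFP57. It read 11.55 ± 0.09 in controls and 11.21 ± 0.16 after BPA (SD, n = 3 per group), a difference of -0.35 ± 0.12 (SE, adjusted p = 0.701) without overlap, or -0.27 without the replicate 3 arrays. Its other probe sets differed by -0.45 and -0.12 with overlap. Trim28, the corepressor of these zinc finger proteins, differed by 0.05. Ctcf, the insulator protein of the Igf2 and H19 region, differed by -0.04 on its brightest probe set and by -0.57 without overlap on the other (1449042_at, adjusted p = 0.777). Zfp57 lay below the filter.

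Several factors had a dimmer probe set that differed more, and these are named after their values were seen. For the DNA methyltransferase gene Dnmt3a, 1423066_at differed by -0.78 ± 0.16 and 1423065_at by -0.64 ± 0.18 (SE, adjusted p = 0.655 for both), with all BPA arrays below all controls. Its other 3 tested probe sets ran from -0.15 to 0.01 and overlapped. The gene of the methylcytosine oxidase Tet1 gave -0.47 ± 0.14 without overlap on 1429448_s_at (SE, adjusted p = 0.674) and 0.18 with overlap on its brightest. Dnmt3b gave -0.23 without overlap on 1418351_a_at (adjusted p = 0.806) and -0.07 with overlap on its brightest. Tet2 gave -0.90 with overlap on its brightest, or -1.21 without the replicate 3 arrays, and 0.08 on its other. Over all 26 tested probe sets of the list, 6 had groups without overlap and 4 an unadjusted p under 0.05, and 0 passed. The shares of all tested probe sets were 12.2% and 6.47%. All of the 6 were lower after BPA, for which the share was 4.35%, a direction looked at after the values were seen. Both Dnmt3a probe sets named above are among the 6, so these are not separate genes. On the brightest probe set per gene, 1 of 12 had groups without overlap, against 12.0% of all genes.

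**Figure D4:**
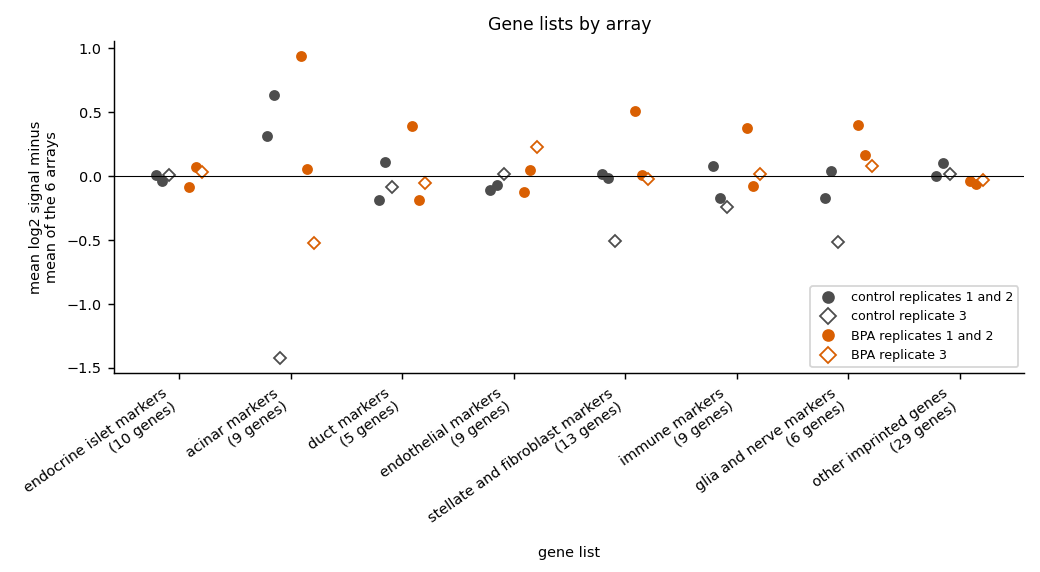
Mean log2 signal of each gene list on each array minus the mean of the 6 arrays; circles are replicates 1 and 2 and open diamonds replicate 3, grey for control and orange for BPA. Acinar markers spread from -1.42 to 0.94 with replicate 3 lowest in both groups. The means of endocrine markers (-0.08 to 0.07) and of the 29 other imprinted genes (-0.06 to 0.10) average genes that differ in direction.

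Markers of other cell types that could express imprinted genes are given beside these results, and 57.7% of all genes were higher after BPA. Acinar genes were higher in 9 of 9, with a median of 0.25, and in 4 of 9, with a median of -0.02, without the replicate 3 arrays. Stellate cell and fibroblast genes (13 of 13 measured) had mean levels of 8.91 to 9.43 in controls and 9.39 to 9.92 after BPA, with 11 of 13 higher, or 10 without the replicate 3 arrays. Glia and nerve genes (6 of 10 measured) had 7.40 to 7.96 in controls and 8.0 to 8.32 after BPA, with 6 of 6 higher with or without the replicate 3 arrays. Endothelial genes (9 of 10) ran from 9.41 to 9.53 and from 9.40 to 9.75, immune genes (9 of 12) from 9.01 to 9.33 and from 9.18 to 9.63, and duct genes (5 of 9) from 9.34 to 9.64 and from 9.34 to 9.92. None of the genes of these lists passed limma's test. Their part in the members' values was not tested.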

How the data were processed

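Islet RNA of 3 control and 3 BPA samples was hybridised as biotin-labelled cRNA, per the labels' protocols. The authors deposited 1 log2 signal per probe set and array; MAS5 is named, per the submitters' processing notes, with no version, and the way probes were summarised is not given in sources used here. Array medians lay between 6.55 and 6.65, so values were used as deposited. The table has no detection calls, and the number of arrays limits precision. Groups and replicate numbers came from sample titles.

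Array controls (64) were set aside. Of 45037 other probe sets 34945 had 1 gene in the platform annotation, 932 several and 9160 none. Those with a mean above the median (22518) were fitted with limma 3.58.1 in R 4.3.3 (moderated with an intensity trend, two-sided, p adjusted by Benjamini-Hochberg over all 22518, threshold 0.05). Lists used 1 probe set per gene, the brightest tested one. Every member probe set was reported. Of lists other than cell type markers, the 3 brightest genes were named, for 2 lists also the 5 of smallest p. Cell type marker lists were given as counts and means, with only Ins2 and Pdx1 named as the ends of the endocrine range. The members and lists were chosen with earlier results of these data known. The fit was tested on simulated data. Figures were drawn with matplotlib 3.10.9. Alternatives were other scalings, filters and moderation, the replicate number as a block, an acinar covariate and arrays left out.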

Additional observations from a re-analysis of the deposited data

How the results depend on the processing

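No probe set, no member probe set and none of the other imprinted genes passed at an adjusted p under 0.05 in any alternative run, with each array left out, with an ordinary linear model, or with a gene's kept probe sets averaged for the other imprinted genes. Of 360 differences of member probe sets over 18 alternatives, 328 kept their direction and 32 changed sign, 19 among the tested probe sets, none of them past the threshold, and 13 among the untested ones, each by less than 1 SD. The fit with the replicate number as a block (replicate block) called 0 probe sets, with a smallest adjusted p of 0.190, or 0.263 among members (Peg3 1417355_at), and 3042 probe sets had an unadjusted p under 0.05. Deviations of samples with the same number correlated at 0.476, 0.078 and 0.706, and control replicate 2 correlated best with BPA replicate 1 (0.427), so the numbers were not taken as pairs. Grb10 1425458_a_at turned to 0.0097 under median centring, Grb10 1430164_a_at to -0.016 under cyclic loess and Plagl1 1426208_x_at to -0.021 with the acinar covariate. Without the replicate 3 arrays Mest turned to -0.045 and Grb10 1430164_a_at to -0.077, with or without the block, the former fit being chosen after seeing the data. With each array left out in turn the difference ran from -0.17 to 0.11 for Grb10 1425458_a_at, -0.25 to 0.24 for Grb10 1430164_a_at, -0.090 to 0.22 for Mest, -0.13 to 0.21 for Plagl1 1426208_x_at, -0.11 to 0.31 for Peg3 1417356_at and -0.13 to 0.021 for Peg3 1433924_at. Among untested probe sets it ran from -0.073 to 0.085 for Dlk1 1442724_at, -0.095 to 0.082 for Grb10 1425457_a_at, -0.018 to 0.17 for H19 and Mir675, -0.20 to 0.049 for Peg3 1447731_at and -0.027 to 0.20 for Plagl1 1450533_a_at, and Grb10 1425457_a_at was 0.0093 under median centring. The cause of these turns was not tested. Of the 10 untested probe sets, Dlk1 1449939_s_at and Plagl1 1438588_at missed the filter by 0.18 and 0.26, and the others had means of at most 5.28, where low signal limits what they can show. Differences of list genes without the replicate 3 arrays were added after seeing the data and have no test.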
